A study of Homo sapiens with 6 samples.

Results

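The proton pump and a panel of lysosomal genes were examined in OCI-AML5, a human acute myeloid leukemia line kept in culture with the cytokine GM-CSF. The panel is a list of 34 genes out of the 60609 listed in the data. It holds 16 genes of the vacuolar H+-ATPase (V-ATPase), 12 lysosomal hydrolases and soluble cofactors, 4 lysosomal membrane proteins, and the transcription factors *TFEB* and *TFE3*. Members were listed by gene symbol, without a cutoff on any measured value. The list was chosen with earlier results of these data known. All 34 members matched 1 Ensembl identifier each. The 6 libraries were stranded mRNA libraries, 3 from cells given the solvent DMSO and 3 from cells given S767, a small molecule, at 1 μM for 24 hours. All libraries came from this 1 cell line, and the labels do not say whether replicates were separate cultures, so p-values measure the spread between these samples. The comparison asks whether mRNA of the lysosomal acidification and degradation machinery differed after exposure to S767.

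The V-ATPase is a rotary pump. Its cytosolic V1 sector hydrolyses ATP, and its membrane-embedded V0 sector carries protons into the lumen of lysosomes and related organelles. The acid lumen activates hydrolases that degrade proteins, glycans and lipids, and membrane proteins such as NPC1 export the products. TFEB and TFE3 are basic helix-loop-helix factors that bind a palindromic E-box, the CLEAR element, in promoters of many lysosomal genes.

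The libraries held 149994700 to 258029564 gene counts each, so counting error was small for every member but *ATP6V0C*. Of 10 myeloid genes checked, *KIT*, *ANPEP* and *ELANE* averaged under 1 TPM. *PTPRC*, *CD33* and *SPI1* averaged 72.8 TPM or more in each group, *MPO* 18.5 TPM over all libraries, *IL3RA* 6.92, *CSF2RA* 3.33 and *CD34* 1.43 TPM. The 10 summed to 416.4 to 464.4 TPM in the DMSO libraries and 420.04 to 474.2 TPM in the S767 libraries. Of 11 lymphoid, erythroid, epithelial and liver genes, 10 averaged under 1 TPM, with the defining *CD3E*, *MS4A1*, *HBA1* and *KRT18* at or near 0. The 11 summed to 7.11 to 11.6 TPM in the DMSO libraries and 7.28 to 11.6 TPM in the S767 libraries. *CD79A*, a B cell gene, made up most of this at 8.85 ± 2.09 TPM (SD, n = 3) in DMSO and 8.54 ± 2.33 TPM (SD, n = 3) in S767. Its part in the results was not tested. Same-numbered DMSO and S767 libraries deviated together, so values from a second fit, in which the replicate number is a block, are given beside the results whose call it changed.

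Promoter sequence was looked at first, because TFEB and TFE3 bind the CLEAR element. A match in sequence does not show binding in these cells, which was not measured. The element is known from lysosomal promoters, so a high share in this panel could be foreseen and is no result of these data. RefSeq promoters (GRCh38.p14, the 250 bases before the start) were found for 24 of the 34 members. The RefSeq start can lie inside the GENCODE 29 gene, as it does for *ATP6V0D1*, *ATP6V1G1*, *CTSA*, *GAA* and *TPP1*. The core TCACGTGA, which reads the same on both strands and contains the E-box CACGTG, occurred in 6 of these 24 promoters (25%). It occurred in 0.89% of all 27305 promoters and in 1.6% of the 12022 promoters of genes tested. On a wider list of lysosomal genes, described below, it occurred in 8 of 102 promoters (7.84%). The shorter CACGTG occurred in 9 of the 24 (37.5%), against 6.49% of all promoters and 19.6% of those of the wider list. The 6 windows with the core are shown because the core is the CLEAR element that the factors bind, with the core in capitals and 20 bases on either side where the promoter reaches that far. They lie at chr16:67481190-67481237 on the minus strand for *ATP6V0D1*, and on the plus strand at chr9:114587690-114587737 for *ATP6V1G1*, chr20:45891289-45891334 for *CTSA*, chr17:80101484-80101576 for *GAA*, chr13:113297190-113297237 for *LAMP1* and chr19:7522562-7522623 for *MCOLN1*.
ATP6V0D1: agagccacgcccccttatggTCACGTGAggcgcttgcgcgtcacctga
ATP6V1G1: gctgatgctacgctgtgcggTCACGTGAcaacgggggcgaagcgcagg
CTSA: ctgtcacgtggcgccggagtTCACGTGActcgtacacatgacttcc
GAA: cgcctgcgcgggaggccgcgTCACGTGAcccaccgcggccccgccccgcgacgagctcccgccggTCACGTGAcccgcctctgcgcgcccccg
LAMP1: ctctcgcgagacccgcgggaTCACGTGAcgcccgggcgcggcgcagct
MCOLN1: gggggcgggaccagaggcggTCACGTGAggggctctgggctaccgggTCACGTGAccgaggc

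*GAA* and *MCOLN1* each held the core at 2 places. These 6 members span the pump, the hydrolases and the membrane proteins. Their log2 fold changes for S767 against DMSO ran from -0.03 to 0.07 with a median of 0.04, and the lowest *P* value among them was 0.127. With the block *GAA* and *ATP6V0D1* passed *P* under 0.05, against 16.8% of all genes tested, and the lowest adjusted p among the 6 was 0.110 (edgeR). The other 18 members with a promoter ran from -0.32 to 0.14 with a median of -0.0025. The low end is *ATP6V0C*, which the gene counts could not follow, as described below.

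Levels were compared in TPM, which is per transcript length. All 34 members were expressed, and their median level was 66.0 TPM. The highest 3 were pump genes. *ATP6V1F* averaged 268.5 TPM over the 6 libraries, *ATP6V0B* 260.7 TPM and *ATP6V0C*, which encodes the proton-carrying ring subunit, 247.2 TPM. The lowest were *TFE3* at 10.9 TPM, *TFEB* at 8.26 TPM and the protease gene *CTSL* at 6.99 TPM. The pump members together summed to 1680, 1485 and 1507 TPM in the 3 DMSO libraries and to 1631, 1465 and 1490 TPM in the 3 S767 libraries. These ranges overlapped.

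**Figure D1:**
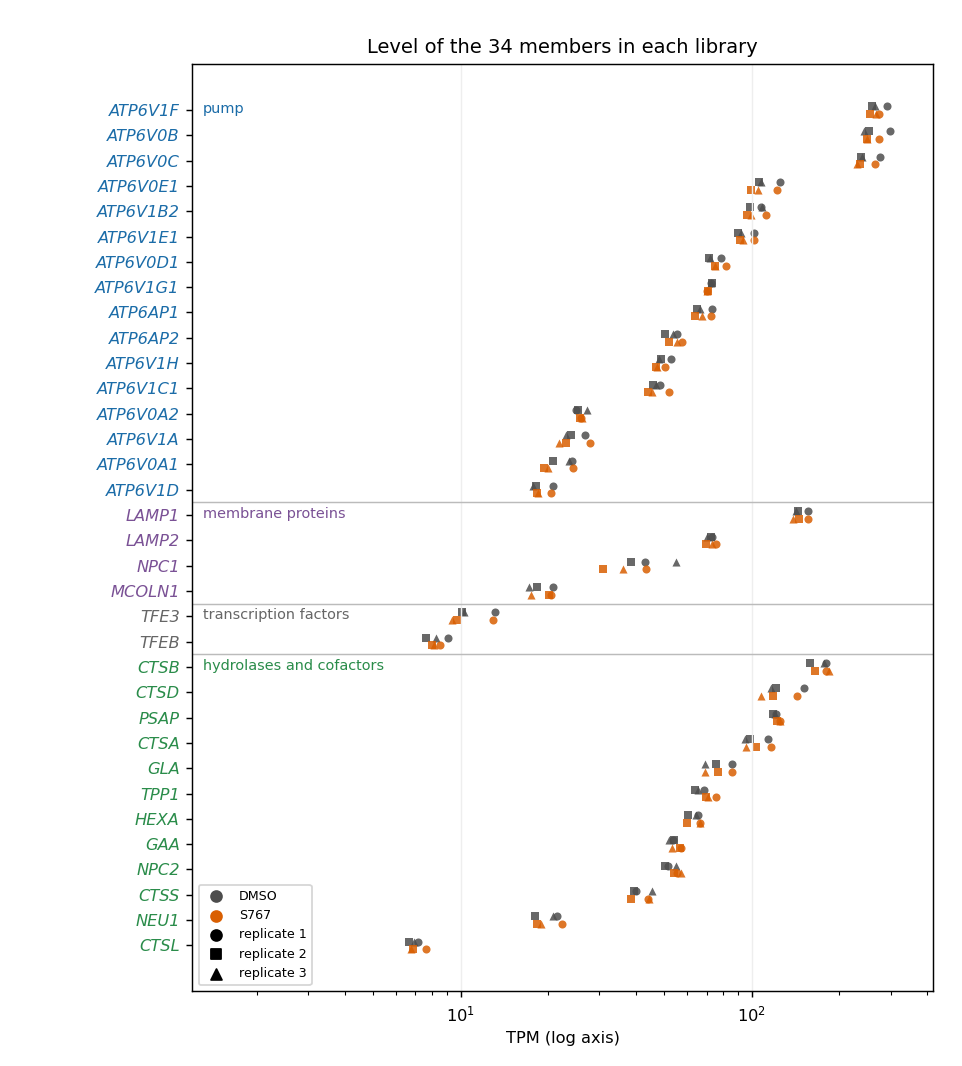
TPM of each member (log axis) in 3 DMSO and 3 S767 libraries, with replicates as symbols and genes grouped by role. DMSO and S767 points lie close together, and *ATP6V1F*, *ATP6V0B* and *ATP6V0C* stand highest, between 230 and 298 TPM.

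Several pump subunits have alternative isoforms made by other genes, which were not members. *TCIRG1*, the a3 isoform of the large V0 subunit, was at 2.55 ± 0.04 TPM (SD, n = 3) in DMSO and 2.62 ± 0.32 TPM (SD, n = 3) in S767, far under *ATP6V0A1* and *ATP6V0A2*, which averaged 22.1 and 25.9 TPM. Of the 9 alternative pump genes on a wider list, 6 passed the filter on low counts. Without the block none of them reached a *P* value under 0.05, against 3.53% of all genes tested. With it 1 did, against 16.8%. This was *ATP6V0E2*, a V0 isoform gene chosen after its values were seen, at 34.8, 35.96 and 34.7 CPM in DMSO and 36.3, 39.9 and 37.3 CPM in S767 (log2 fold change 0.11, edgeR block adjusted p = 0.0704).

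Of the 34 members, all of which passed the filter on low counts, 19 had a log2 fold change above 0 and 15 below it, against 49.8% above 0 over the 20725 genes tested. The median was 0.02, and that of all genes was -0.00024. At *P* under 0.05, 1 member was higher in S767 and 1 was lower (edgeR quasi-likelihood test). Over all genes 3.53% passed, 2.03% higher and 1.51% lower. The study also used this *P* threshold, with limma-voom, and its pathway analysis of up-regulated genes added a fold change cutoff not applied here. No member passed an adjusted p of 0.05 with edgeR, limma-voom or DESeq2 without the block, and with edgeR this was true of all but 1 gene tested (0.00483%). With the replicate block, 7 members were higher and 1 lower at *P* under 0.05, against 9.38% and 7.39% of genes (16.8% in all). At an adjusted p under 0.05 with the block, 2 members were higher and 1 lower, against 2.16% and 1.08% of genes (3.23% in all). The 2 calls made without the block became 1 without DMSO replicate 3 or S767 replicate 3 and 5 without S767 replicate 1. In 30 of the 34 members the range between replicates was larger than the difference between treatments, which held for 83.9% of all genes.

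**Figure D2:**
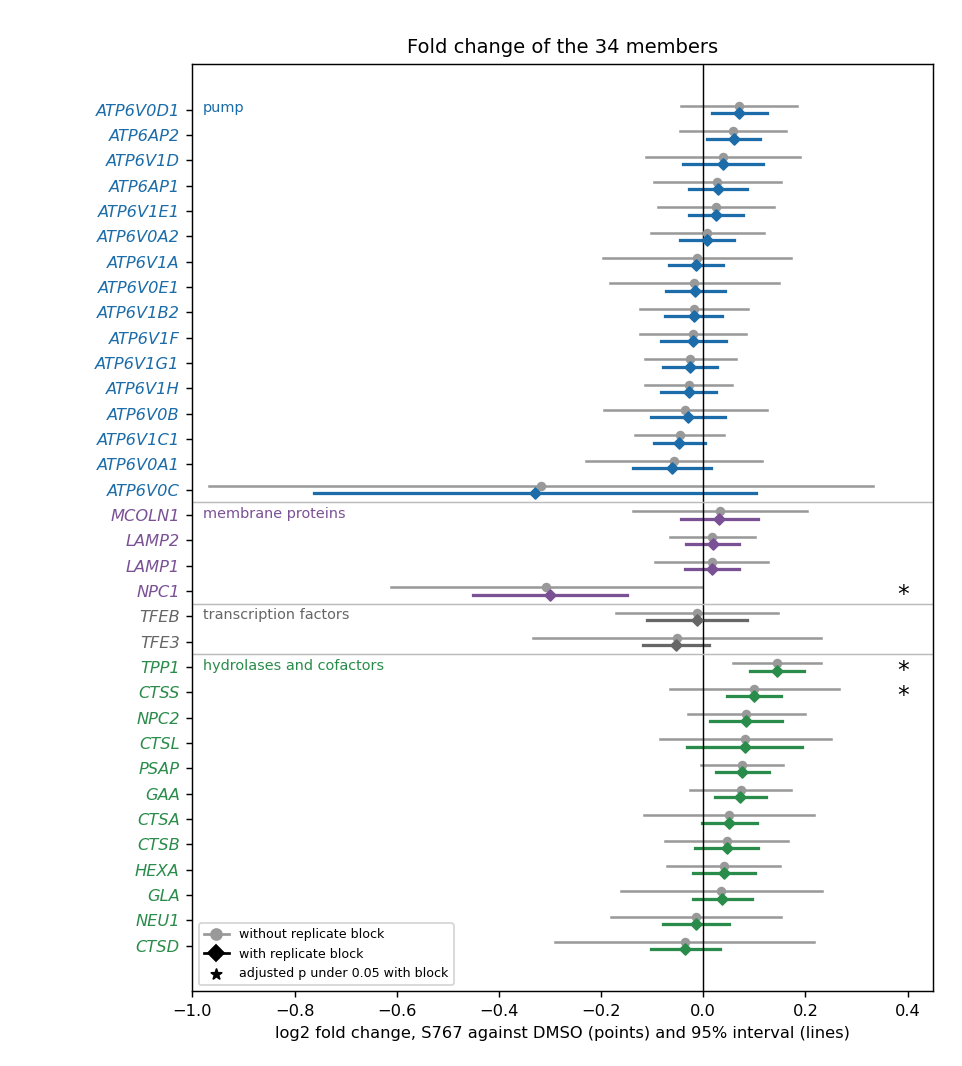
Log2 fold change of each member, S767 against DMSO, with its 95% interval, without the replicate block (grey circles) and with it (coloured diamonds). Pump genes centre on 0, most hydrolases lie to its right, and asterisks mark *NPC1*, *TPP1* and *CTSS*, the 3 members with an adjusted p under 0.05 in the fit with the block.

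Without the block no pump gene reached a *P* value under 0.05, against 3.53% of all genes tested. Of the 16, 6 had values above 0 on the log2 fold change scale and 10 below, and the median was -0.02. That median turned to 0.04 without DMSO replicate 1 and to 0.0046 without S767 replicate 2, and it was -0.04 without DMSO replicate 3. Leaving aside *ATP6V0C*, the values ran from -0.06 to 0.07, and the 95% intervals of the 15 genes spanned -0.23 to 0.19, or -0.14 to 0.12 with the block. The V1 sector genes (8) had a median of -0.02 and the V0 sector genes (6) one of -0.03. In CPM, 2 of the 16 were higher in S767 in all 3 same-numbered pairs, against 19.9% of genes tested. In the other direction 4 were lower in all 3, or 3 without *ATP6V0C*, against 17.8% of genes tested. *ATP6V1A*, the catalytic V1 subunit, was at 26.8, 23.9 and 23.1 TPM in DMSO and 27.8, 23.1 and 21.8 TPM in S767. Its libraries were interleaved, and its log2 fold change was -0.01 with an SE of 0.08 (edgeR P = 0.877, exact permutation p = 0.8). *ATP6V0D1*, a V0 subunit that joins the ring to the central stalk, and *ATP6AP2*, an accessory protein also known as the prorenin receptor, reached *P* under 0.05 only with the block. Their log2 fold changes were 0.07 and 0.06, with block adjusted p of 0.157 and 0.231 from edgeR. Over all genes tested 16.8% passed *P* under 0.05 with the block, against these 2 of the 16 pump genes.

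*ATP6V0C* could not be followed with the gene counts. STAR gave it 0.173% of the fragments that RSEM assigned, and 72.1% of its exonic bases are also covered by exons of *AC093525.1* and *AC093525.2* on the same strand (GENCODE 29). Its log2 fold change was -0.32 with an SE of 0.28 from these few counts and -0.03 from RSEM. RSEM placed it between 230 and 276 TPM.

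Most hydrolase and cofactor genes were slightly higher in S767, and few passed a test. Of the 12, 10 had positive log2 fold changes, the median was 0.06, and only *CTSD* and *NEU1* were below 0. That median stayed positive under all 23 alternatives. It ran from 0.03 with log2(TPM + 1) to 0.08 without DMSO replicate 1. In CPM, counts scaled to library size, the S767 library was higher in all 3 same-numbered pairs for 8 of the 12 and lower in all 3 for none, against 19.9% and 17.8% of genes tested. The medians of the 12 within pairs 1, 2 and 3 were 0.02, 0.08 and 0.07. The CPM values of the groups did not overlap for 4 of them, *TPP1*, *CTSL*, *NPC2* and *PSAP*, all higher in S767, against 5.12% of genes tested, and 0 were apart in the lower direction, against 4.08%. The differences were small, and 1 of the 12 reached *P* under 0.05, against 3.53% of all genes. With the block 5 did, against 16.8%.

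*TPP1* (ENSG00000166340, chromosome 11, 6612763 to 6619485) encodes tripeptidyl peptidase 1, a lysosomal serine protease whose loss causes a childhood neuronal ceroid lipofuscinosis. Its level was 68.8, 63.7 and 65.2 TPM in DMSO and 75.5, 69.4 and 70.6 TPM in S767. All 3 S767 libraries were above all 3 DMSO libraries. The log2 fold change was 0.14 with an SE of 0.04 (edgeR P = 0.00463, adjusted p = 1.00, exact permutation p = 0.1). With the block the SE was 0.02 and the adjusted p 0.00835 from edgeR, and without the replicate 2 pair that adjusted p was 0.335. STAR counted 74.7% of the fragments that RSEM assigned, and exons of *AC091564.7* cover 11.6% of its exonic bases on the same strand. Its promoter held no TCACGTGA, but it held 2 copies of a related octamer, TCATGTGA or its reverse complement TCACATGA, which was searched after its values were seen. That octamer occurred in 1 of the 24 promoters (4.17%) and in 4 of 102 promoters of the wider list (3.92%). It occurred in 0.864% of all promoters and in 0.64% of those of genes tested. These bases precede the RefSeq start but lie inside the gene span given above. The octamer is shown in capitals (chr11:6619423-6619463, minus strand).
TPP1: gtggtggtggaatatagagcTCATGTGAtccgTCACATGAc

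*CTSS* (chromosome 1, 150730196 to 150765957) encodes cathepsin S, a cysteine protease that processes the MHC class II invariant chain in antigen-presenting cells. In CPM it was at 59.1, 52.6 and 60.6 in DMSO and 63.3, 55.9 and 65.5 in S767. The groups overlapped, but within the 3 pairs the log2 ratios were 0.10, 0.09 and 0.11. The log2 fold change of 0.10 had an SE of 0.07 (edgeR P = 0.205, exact permutation p = 0.4), and with the block an SE of 0.02 and an adjusted p of 0.0455. With the block that adjusted p was 0.0629 from RSEM counts, 0.0524 from limma-voom and 0.0548 with library size alone, and leaving out pair 2 or pair 3 gave 0.423 or 0.185 (edgeR). Without the block the log2 fold change was 0.04 without DMSO replicate 2, 0.05 without S767 replicate 3 and 0.16 without S767 replicate 2. In TPM the same libraries gave 40.0, 39.4 and 45.3 in DMSO and 44.2, 38.4 and 44.3 in S767, lower in S767 in 2 of the 3 pairs.

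*PSAP*, *NPC2*, *GAA* and *CTSL* were looked at after their values were seen. *PSAP*, the precursor of the saposins that present sphingolipids to hydrolases, was at 231.4, 234.5 and 228.1 CPM in DMSO and 238.2, 245.0 and 248.5 in S767. Its log2 fold change was 0.08 with an SE of 0.04 (edgeR P = 0.0601, block adjusted p = 0.116, exact permutation p = 0.1). *NPC2*, the soluble cholesterol carrier that hands its cargo to NPC1, had a log2 fold change of 0.08 with an SE of 0.05, and it reached *P* under 0.05 only with the block (edgeR block adjusted p = 0.204). *GAA*, acid alpha-glucosidase, had one of 0.07 with an SE of 0.04, and its block adjusted p from edgeR was 0.110. *CTSL* differed by 0.08 with an SE of 0.07 and a low level of 6.69 to 7.55 CPM. The exact permutation test gave p = 0.1 for *TPP1*, *PSAP*, *NPC2* and *CTSL*, the smallest value that 3 against 3 libraries allow. That value follows from groups that do not overlap and is not a further result.

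*CTSD*, the aspartic protease cathepsin D, was among the 2 below 0. Its level was 151.3, 121.0 and 116.3 TPM in DMSO and 143.6, 118.0 and 107.8 TPM in S767. These TPM values were lower in S767 in all 3 pairs, whereas the CPM values were higher in pair 2. The log2 fold change was -0.04 with an SE of 0.11 (edgeR P = 0.749, exact permutation p = 0.9). STAR counted 25.3% of the fragments that RSEM assigned, and exons of *AC068580.4* cover 41.7% of its exonic bases on the same strand.

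**Figure D3:**
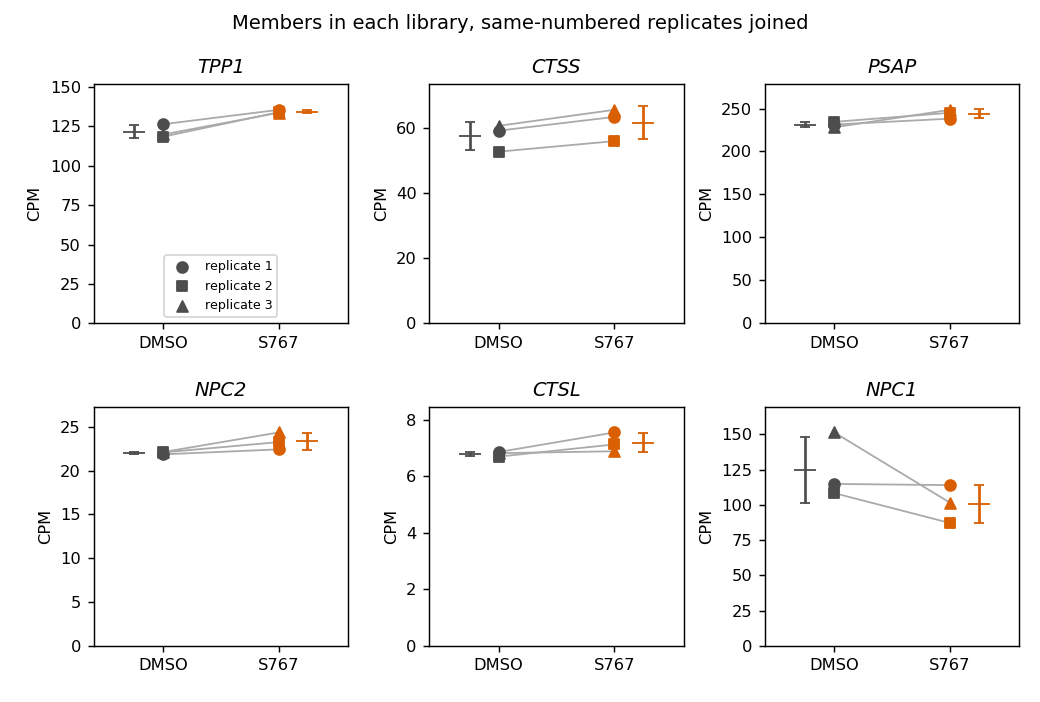
CPM in each library for 6 members, with lines joining same-numbered DMSO and S767 replicates, and the mean and SD of each group (n = 3) beside the points. The y axes start at 0, and *NPC1* is the only one of the 6 with a lower mean in S767, with DMSO replicate 3 its highest point.

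Among the membrane proteins, *NPC1* stood apart from the other 3. *NPC1* (chromosome 18, 23506184 to 23586898) encodes the transmembrane protein that moves cholesterol out of lysosomes. Its level was 43.0, 38.6 and 55.2 TPM in DMSO and 43.3, 30.9 and 36.2 TPM in S767. Replicate 1 was nearly equal in both treatments, and the groups overlapped. The log2 fold change was -0.31 with an SE of 0.13 (edgeR P = 0.0481, adjusted p = 1.00, exact permutation p = 0.2). With the block it was -0.30 with an SE of 0.07 and an adjusted p of 0.0375 from edgeR. That adjusted p became 0.0502 from limma-voom, 0.0851 from RSEM counts and 0.420 without the replicate 2 pair. Without the block *P* was 0.0511 from limma-voom and 0.0182 from DESeq2. From edgeR it was 0.0562 with RSEM counts and 0.0598 with library size alone. Within pairs 1, 2 and 3 the log2 ratios were -0.01, -0.31 and -0.57, and without pair 3 the value with the block was -0.16. Without DMSO replicate 3 the log2 fold change was -0.14, without S767 replicate 2 it was -0.21, and without S767 replicate 3 it was -0.31, and in none of these fits did *P* stay under 0.05.

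*LAMP1*, *LAMP2* and *MCOLN1* had log2 fold changes of 0.02, 0.02 and 0.03. *LAMP1*, a heavily glycosylated protein of the lysosomal membrane, was at 156.0, 144.2 and 141.7 TPM in DMSO and 156.2, 145.3 and 138.6 TPM in S767. Its libraries were interleaved (log2 fold change SE 0.05, edgeR P = 0.744, exact permutation p = 0.8). *MCOLN1* encodes a lysosomal calcium channel, and its 95% interval ran from -0.14 to 0.20.

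Neither transcription factor gene reached *P* under 0.05, without the block or with it. *TFEB* was at 9.05, 7.62 and 8.27 TPM in DMSO and 8.52, 8.01 and 8.10 TPM in S767, with a log2 fold change of -0.01 and an SE of 0.07 (edgeR P = 0.861, exact permutation p = 1.0). *TFE3* was at 13.2, 10.1 and 10.3 TPM in DMSO and 12.96, 9.73 and 9.36 TPM in S767, with a log2 fold change of -0.05 and an SE of 0.12 (edgeR P = 0.687, exact permutation p = 0.5). Their 95% intervals ran from -0.17 to 0.15 and from -0.33 to 0.23. In both, the first replicate was the highest in each treatment. *TFE3* was lower in S767 in all 3 pairs, and with the block its interval was -0.12 to 0.01 (edgeR block adjusted p = 0.401). These factors are regulated largely by phosphorylation and movement into the nucleus, which mRNA does not measure.

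A wider list of 129 lysosomal genes was read beside the members, of which 128 matched a unique symbol and 120 were tested. Of these, 89 lay above 0 on the log2 fold change scale, where 49.8% of all genes lay, and the median was 0.04. At *P* under 0.05, 6 were higher in S767 and 0 lower, against 2.03% and 1.51% of all genes, a count that was 0 without DMSO replicate 2, 11 without DMSO replicate 1 and 3 without S767 replicate 3, and none passed an adjusted p of 0.05 with edgeR. With the block 32 were higher and 1 lower at *P* under 0.05, against 9.38% and 7.39% of all genes. The 36 other hydrolases and cofactors had 31 values above 0 with a median of 0.06, and the 30 other membrane proteins and channels had 25 above 0 with a median of 0.06. The 12 autophagy genes were divided evenly, 6 above and 6 below 0, and *SQSTM1*, the autophagy receptor p62, had a log2 fold change of -0.05 with an SE of 0.08.

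**Figure D4:**
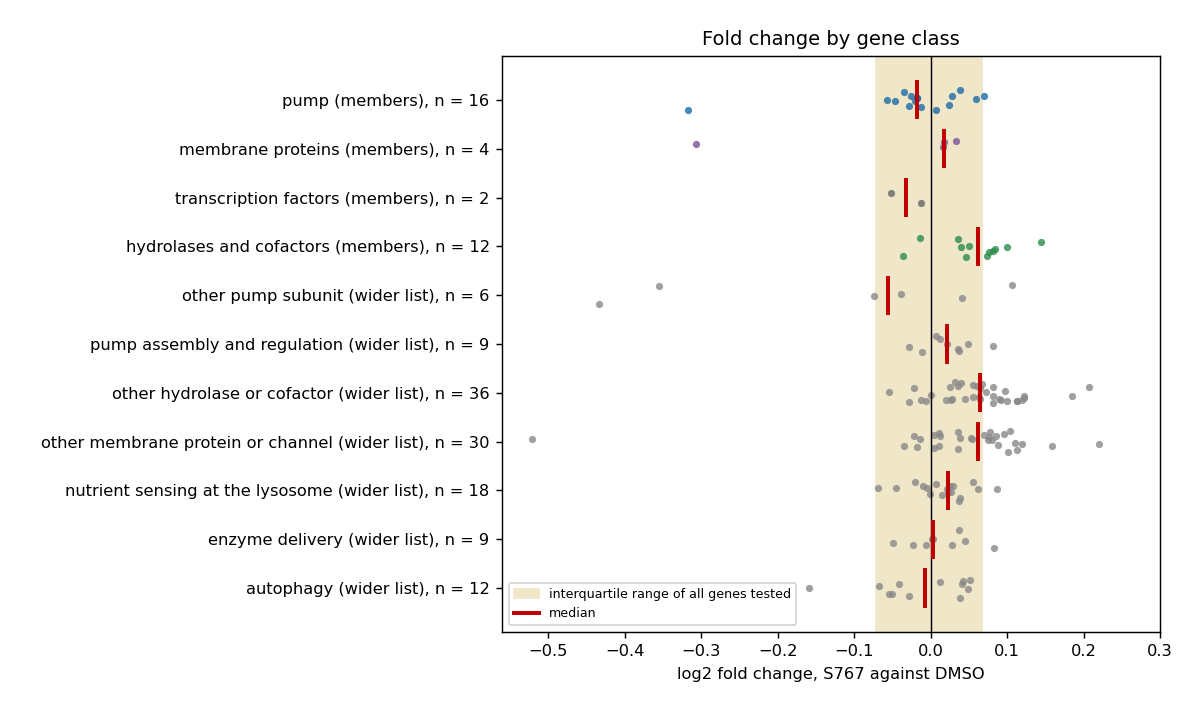
Log2 fold change of members and of the wider list by class, S767 against DMSO, 1 point per gene, with the class median in red and the interquartile range of the 20725 genes tested (-0.07 to 0.07) shaded. The medians drawn lie inside the shaded band, and those of the hydrolases and of the other membrane proteins lie near its upper edge.

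At an adjusted p under 0.05 with the block, 4 genes of the 120 tested on the wider list were higher in S767, against 2.16% of all genes. *PPT1* encodes palmitoyl-protein thioesterase 1, and its loss, like that of *TPP1*, causes a neuronal ceroid lipofuscinosis. It was at 146.6, 138.2 and 135.7 TPM in DMSO and 156.3, 146.6 and 147.4 TPM in S767, with a log2 fold change of 0.12 and a block SE of 0.02 (edgeR block adjusted p = 0.0155). *TMEM63A*, a mechanosensitive channel gene, differed by 0.16 (edgeR block adjusted p = 0.0176). *SLC36A1*, a proton-coupled amino acid transporter gene, differed by 0.11 (edgeR block adjusted p = 0.0361), and *LAPTM5*, a lysosomal membrane protein gene of blood cells, by 0.12 (edgeR block adjusted p = 0.0442). Without the replicate 2 pair none of the 4 kept an adjusted p under 0.05, with values from 0.284 to 0.600. Without the replicate 3 pair it was 0.0553 for *PPT1* and 0.0778 for *SLC36A1*, and from RSEM counts 0.0643 for *LAPTM5* and 0.0512 for *SLC36A1* (edgeR with the block). Without the block the value of *SLC36A1* was 0.02 without S767 replicate 1 and 0.21 without DMSO replicate 1.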

How the data were processed

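OCI-AML5 RNA was sequenced as stranded poly(A) libraries, 3 with DMSO and 3 with S767, grouped by their labels. The authors deposited whole-number gene counts from STAR 2.7.1a, and expected counts and TPM values from RSEM 1.2.28 (versions and the build GRCh38 per the submitters' processing notes). The annotation release is not given in the sources used here. Summary lines without a gene (20.3% of fragments) were dropped. Reverse-strand counts were analysed, since 6.44 to 6.58% lay on the forward strand.

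Genes were kept with filterByExpr (minimum count 10), normalized with TMM and compared by edgeR (version 4.0.16, R 4.3.3) with its quasi-likelihood test, without a block, with Benjamini-Hochberg adjustment over 20725 genes. The SE was obtained by dividing the fold change (log2) by the root of F. Expected counts were rounded to whole numbers. The model was tested on simulated data with changes larger than those of the members. That test does not cover differences of the size seen here. Replicate numbers pair the libraries: deviations from group means correlated at 0.78, 0.87 and 0.75 for equal numbers over 6191 genes. Unequal numbers correlated negatively, which follows in part because deviations within a group cancel out. The pairing comes from the correlations of equal numbers, and the labels do not say what a number shares. No library repeated another (chi-square per gene 15.2 or more).

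The members and lists were chosen with earlier results of these data known. All members could be named. Values in every library were set for members with *P* under 0.05, or a block adjusted p under 0.05, and for *TFEB*, *TFE3*, *LAMP1*, *ATP6V1A* and *CTSD*. From the wider list, genes with an adjusted p under 0.05 in either fit, *TCIRG1* and *SQSTM1* were named. Alternatives were limma-voom (limma 3.58.1), DESeq2 1.42.0, other scaling and filters, both strands, RSEM counts, log2(TPM + 1) and log2(TPM + 0.1), the replicate block, and each library left out.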

Additional observations from a re-analysis of the deposited data

How the results depend on the processing

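The direction of *TPP1*, *NPC1* and *CTSS* was the same under all 23 alternatives run for each. *TPP1* kept *P* under 0.05 in all 23 and *NPC1* in 14. The replicate block, which uses the pairing, moved the counts most. Genes with *P* under 0.05 went from 732 to 3475 with the block, 3428 with limma-voom and the block, 3454 with library size alone under it, and 4362, 1895 and 2791 with the block without pair 1, 2 or 3. Members called went from 2 to 8 with the block, and also with limma-voom or library size alone under it, and to 14, 3 and 5 with the block without pair 1, 2 or 3. They were 1 with library size alone, with at least 10 counts in every library and with RSEM counts, each without the block. Members past an adjusted p of 0.05 went from 0 to 3 with the block, 1 with limma-voom, 2 with library size alone, and 9, 0 and 2 without pair 1, 2 or 3, all under the block. Genes of the wider list with *P* under 0.05 went from 6 to 33 with the block, and with limma-voom or library size alone under it, and to 40, 10 and 25 without pair 1, 2 or 3. RSEM counts with the block, added after seeing the data, gave 3322 genes, 9 members, 1 member past the adjusted p and 37 of the wider list. Leaving out 1 library at a time gave 534 to 1033 genes, 1 to 5 members, 0 to 11 genes of the wider list, and a median of the members from -0.0060 to 0.0655. It gave 4 to 11 members with groups that do not overlap, against 4 with all libraries (11 without DMSO replicate 1, 9 without S767 replicate 1, 8 without S767 replicate 2). Leaving out a library can only keep or raise that number, and its share over all genes was not computed with a library left out. The median of the pump members, -0.02, ran from -0.04 to 0.04 in those fits, and was 0.01 with the block without pair 1. Apart from the number of members that do not overlap, the cause of these moves was not tested. Among the members counting depth limits *ATP6V0C* most, with 32 to 86 counts per library.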
